A study of Mus musculus with 16 samples.

Results

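Adipoq, Cfd, Plin1, Fabp4, Cidec, Retn, Lep and Ucp1 are genes known for their expression in adipocytes, and their levels in kidney RNA were followed here mouse by mouse. A probe was taken as a member if its transcript identifier belonged to one of these 8 genes, which gave 11 of the 56605 probes on the array and 8 of the 22911 genes that could be named. Cfd, Fabp4 and Retn had 2 probes each, of which the brighter stands for the gene, and the other genes had 1. Each of the 8 genes had a signal well above background in 4 or more mice and so entered the tests, as did 16401 genes in all.

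Each of 16 one-color arrays was hybridized with the kidney RNA of a single mouse, labelled as 6 months old, and the 4 genotypes had 4 mice each. Wild-type replicates 3 and 4 share the first number of their animal labels, 114, and differ in the next. Across genotypes, Fcgr2b-/- replicate 4 and double-deficient replicate 3 share 88, and Fcgr2b-/- replicate 3 and double-deficient replicate 4 share 89. The labels do not say what these numbers stand for, and n = 4 takes all of these mice as different animals. The Fcgr2b-/- mice, a lupus model that lacks the inhibitory Fc gamma receptor IIB, and the Fcgr2b-/-.Stinggt/gt (double-deficient) mice are labelled 129/C57BL/6, whereas the wild-type and the Stinggt/gt mice are labelled C57BL/6, so the loss of Fcgr2b and the strain background cannot be told apart. The goldenticket (gt) allele acts as a functional knockout of STING, and the heatmaps of the study head the columns of the lupus group with a heterozygous Sting genotype (Stingwt/gt) that the labels do not give. The wild-type mice were purchased, and the kidneys were not perfused before RNA was taken. The comparisons ask whether loss of Fcgr2b, of STING or of both changed the adipocyte genes of the kidney.

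Adipocytes keep triglyceride in lipid droplets and secrete hormones, the adipokines. White adipocytes hold 1 large droplet, whereas brown adipocytes hold many small ones and burn fatty acids for heat in mitochondria that carry UCP1. A kidney lies in a pad of fat that in mice holds both kinds of cell. RNA of a whole organ does not show which cells a transcript came from, and fewer cells of a type and less RNA per cell cannot be told apart.

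A level below is the log2 of a probe's processed signal minus the 75th percentile of its array, so that 0 is as bright as that percentile. Levels of different probes are not compared. The arrays carried kidney RNA: all 10 proximal tubule genes, all 6 podocyte genes and all 6 genes of the thick limb and distal nephron were well above background on all 16 arrays. The Fcgr2b probe had levels of 1.14 to 2.13 in wild-type, 0.02 to 0.70 in Fcgr2b-/-, -0.40 to 0.50 in double-deficient and -0.19 to 1.54 in Stinggt/gt mice, so it was below each wild-type mouse in each of the 8 Fcgr2b-deficient mice, though well above background in all 16. The library labelled Stinggt/gt replicate 4, at -0.19, lay within the range of the Fcgr2b-deficient mice, which goes against its label, and replicate 3, at 0.703, lay just above that range. The Sting1 transcript, with levels of -1.35 to 2.69, checks no genotype, since the goldenticket allele is a point mutation. The highest correlation of any 2 arrays over genes was 0.993, and no array was a copy of another. Wild-type replicate 1 and Fcgr2b-/- replicate 1 stood apart in the adipocyte genes, as described next, and the main correlations are given with and without them.

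**Figure D1:**
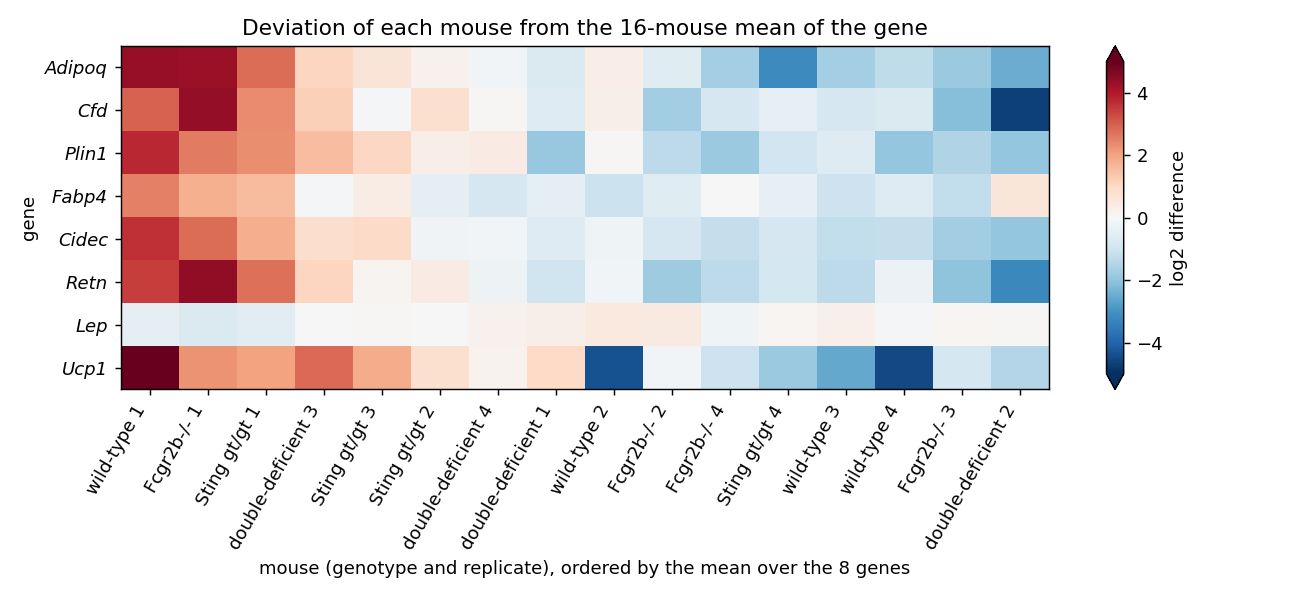
Each column is 1 of the 16 mice, ordered by the mean over the 8 genes, each row is a gene, and the color is the log2 difference of the mouse from the mean of the gene over all mice. Replicate 1 of the wild-type, Fcgr2b-/- and Stinggt/gt mice are at the high end in 7 genes, and Lep is the exception.

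The 7 genes other than Lep were high in the same few mice, and these mice came from different genotypes. Averaged over the 8 genes, the difference from the 16-mouse mean was 3.27 in wild-type replicate 1, 2.73 in Fcgr2b-/- replicate 1 and 1.88 in Stinggt/gt replicate 1, and the next mouse, double-deficient replicate 3, had 1.07. The other 12 mice lay between -1.89 and 0.62. Wild-type replicate 1 and Fcgr2b-/- replicate 1 were each among the 3 highest mice in 7 of the 8 genes, and Stinggt/gt replicate 1 in 6. The double-deficient mouse numbered 1 had -0.52. The mean over the 4 mice of a genotype was 0.06 ± 2.16 (SD, n = 4) in wild-type, -0.13 ± 1.92 in Fcgr2b-/-, -0.35 ± 1.22 in double-deficient and 0.42 ± 1.21 in Stinggt/gt mice, so the genotypes differed by less than the spread among mice of 1 genotype.

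Plin1 encodes perilipin 1, which coats the lipid droplet of adipocytes and guards it from lipases. The 4 wild-type mice had Plin1 levels of -0.15, -3.85, -4.53 and -5.85, and the 4 Fcgr2b-/- mice had -1.30, -5.20, -5.41 and -5.77, each in the order of replicates 1 to 4. The levels were -5.80, -5.84, -2.35 and -3.49 in the double-deficient mice and -1.59, -3.56, -2.86 and -4.87 in the Stinggt/gt mice. The probe was dim: it was well above background in 2 wild-type, 1 Fcgr2b-/-, 2 double-deficient and 3 Stinggt/gt mice, and the lower levels have no reliable order.

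Cidec encodes a droplet protein that lets lipid droplets fuse into a large one, and its probe was well above background on all 16 arrays. Its levels were 3.38, -0.47, -1.48 and -1.45 in wild-type and 2.52, -1.11, -2.02 and -1.45 in Fcgr2b-/- mice. The double-deficient mice had -0.91, -2.20, 0.62 and -0.42, and the Stinggt/gt mice had 1.53, -0.43, 0.68 and -1.09. The 4 groups overlapped. Against the median of the other 3 mice of the genotype, Cidec was 28.5-fold brighter in wild-type replicate 1, 15.7-fold in Fcgr2b-/- replicate 1 and 3.90-fold in Stinggt/gt replicate 1. Of the 8 genes, Cidec followed the mean of the other 7 most closely over the 16 mice (r = 0.99, rho = 0.97), and it did so without the wild-type and Fcgr2b-/- mice numbered 1 as well (r = 0.97 over 14 mice).

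Adipoq encodes adiponectin, the hormone that adipocytes secrete in the greatest amount. Adipoq levels were 2.65, -1.37, -3.41 and -2.99 in wild-type and 2.63, -2.29, -3.57 and -3.41 in Fcgr2b-/- mice. They were -2.43, -4.19, -0.64 and -1.83 in double-deficient and 1.11, -1.47, -1.06 and -4.89 in Stinggt/gt mice, the last of which was the single array of the 16 where the probe was not well above background. The highest mouse of the wild-type group and the highest of the Fcgr2b-/- group thus differed by 0.02, while each stood 49.7-fold and 65.6-fold above the median of the other 3 mice of its genotype. The genotype means of Adipoq stood in the order wild-type (-1.28 ± 2.76), Stinggt/gt (-1.58 ± 2.48), Fcgr2b-/- (-1.66 ± 2.91) and double-deficient (-2.27 ± 1.48; SD, n = 4 each), and no neighbors in that order differed beyond their SD.

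Cfd encodes adipsin, the complement factor D that adipocytes secrete, and Retn encodes resistin, a hormone of white adipocytes in mice. Cfd levels were 4.58, 1.92, 0.81 and 0.91 in wild-type, 6.02, -0.12, -0.50 and 0.78 in Fcgr2b-/-, 0.99, -3.02, 2.84 and 1.70 in double-deficient and 3.98, 2.42, 1.58 and 1.23 in Stinggt/gt mice. Retn levels were 2.21, -1.37, -2.57 and -1.55 in wild-type, 3.18, -3.03, -3.26 and -2.56 in Fcgr2b-/-, -2.26, -4.48, -0.18 and -1.503 in double-deficient and 1.497, -0.83, -1.11 and -2.11 in Stinggt/gt mice. Both were highest in Fcgr2b-/- replicate 1 and lowest in double-deficient replicate 2, and of all pairs among the 8 genes these 2 had the highest correlation (r = 0.97, rho = 0.98; r = 0.95 without the wild-type and Fcgr2b-/- mice numbered 1). In Fcgr2b-/- replicate 1, Cfd was 70.3-fold and Retn 74.2-fold above the median of the other Fcgr2b-/- mice, and in wild-type replicate 1 they were 12.7-fold and 13.5-fold above that of its own group.

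Fabp4 encodes the fatty acid binding protein of adipocytes, which capillary endothelial cells also make. Fabp4 levels were 6.77, 3.15, 3.19 and 3.59 in wild-type and 6.02, 3.61, 2.99 and 4.27 in Fcgr2b-/- mice. They were 3.74, 4.83, 4.15 and 3.38 in double-deficient and 5.82, 3.79, 4.58 and 3.83 in Stinggt/gt mice. Fabp4 was well above background on all 16 arrays, and its range over mice, 3.78, was narrower than that of the other genes that were high in these mice. In double-deficient replicate 2, which had the lowest Cfd, Cidec and Retn of all 16 mice, Fabp4 was the highest of its group.

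Lep encodes leptin, the hormone that signals fat stores. Its levels were -1.09, -0.16, -0.40 and -0.70 in wild-type and -1.35, -0.19, -0.53 and -0.85 in Fcgr2b-/- mice. The double-deficient mice had -0.36, -0.58, -0.66 and -0.42, and the Stinggt/gt mice had -1.19, -0.65, -0.60 and -0.55. Lep was thus lowest in the 3 mice where the other adipocyte genes were highest. Its range over the 16 mice was 1.19, wider than in 19.3% of the tested genes, whereas the ranges of the other 7 genes, 3.78 (Fabp4) to 10.41 (Ucp1), were wider than in 91.1% to 99.9% of them. The median range of a tested gene was 1.81.

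Ucp1 encodes uncoupling protein 1, the heat-making protein of brown adipocyte mitochondria. Its levels were 4.18, -6.08, -4.30 and -6.23 in wild-type and 0.50, -1.88, -2.60 and -2.76 in Fcgr2b-/- mice. They were -0.75, -3.22, 1.12 and -1.56 in double-deficient and 0.29, -0.93, 0.11 and -3.59 in Stinggt/gt mice. Wild-type mice held both ends of the range: replicate 1 was the highest of the 16, and the other 3, the lowest of the 16, were not well above background, while the probe was well above background in all 12 mice of the other genotypes. The Ucp1 mean of the wild-type group, -3.11 ± 4.94 (SD, n = 4), therefore stands for no single mouse.

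The order of the genotype means was the same in Cfd, Cidec and Retn, and the other genes had other orders. Cfd was highest in Stinggt/gt mice (2.30 ± 1.22), followed by wild-type (2.05 ± 1.75), Fcgr2b-/- (1.55 ± 3.03) and double-deficient mice (0.63 ± 2.55). Cidec had means of 0.17 ± 1.17 in Stinggt/gt, -0.0029 ± 2.31 in wild-type, -0.51 ± 2.06 in Fcgr2b-/- and -0.73 ± 1.17 in double-deficient mice, and Retn the same order from -0.64 ± 1.53 to -2.11 ± 1.80. Plin1 ran from -3.22 ± 1.37 in Stinggt/gt to -4.42 ± 2.10 in Fcgr2b-/- mice, Fabp4 from 4.50 ± 0.95 in Stinggt/gt to 4.03 ± 0.62 in double-deficient mice, and Lep from -0.50 ± 0.14 in double-deficient to -0.75 ± 0.30 in Stinggt/gt mice (SD, n = 4 each). Neighbors in each of these orders lay within their SD of each other.

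**Figure D2:**
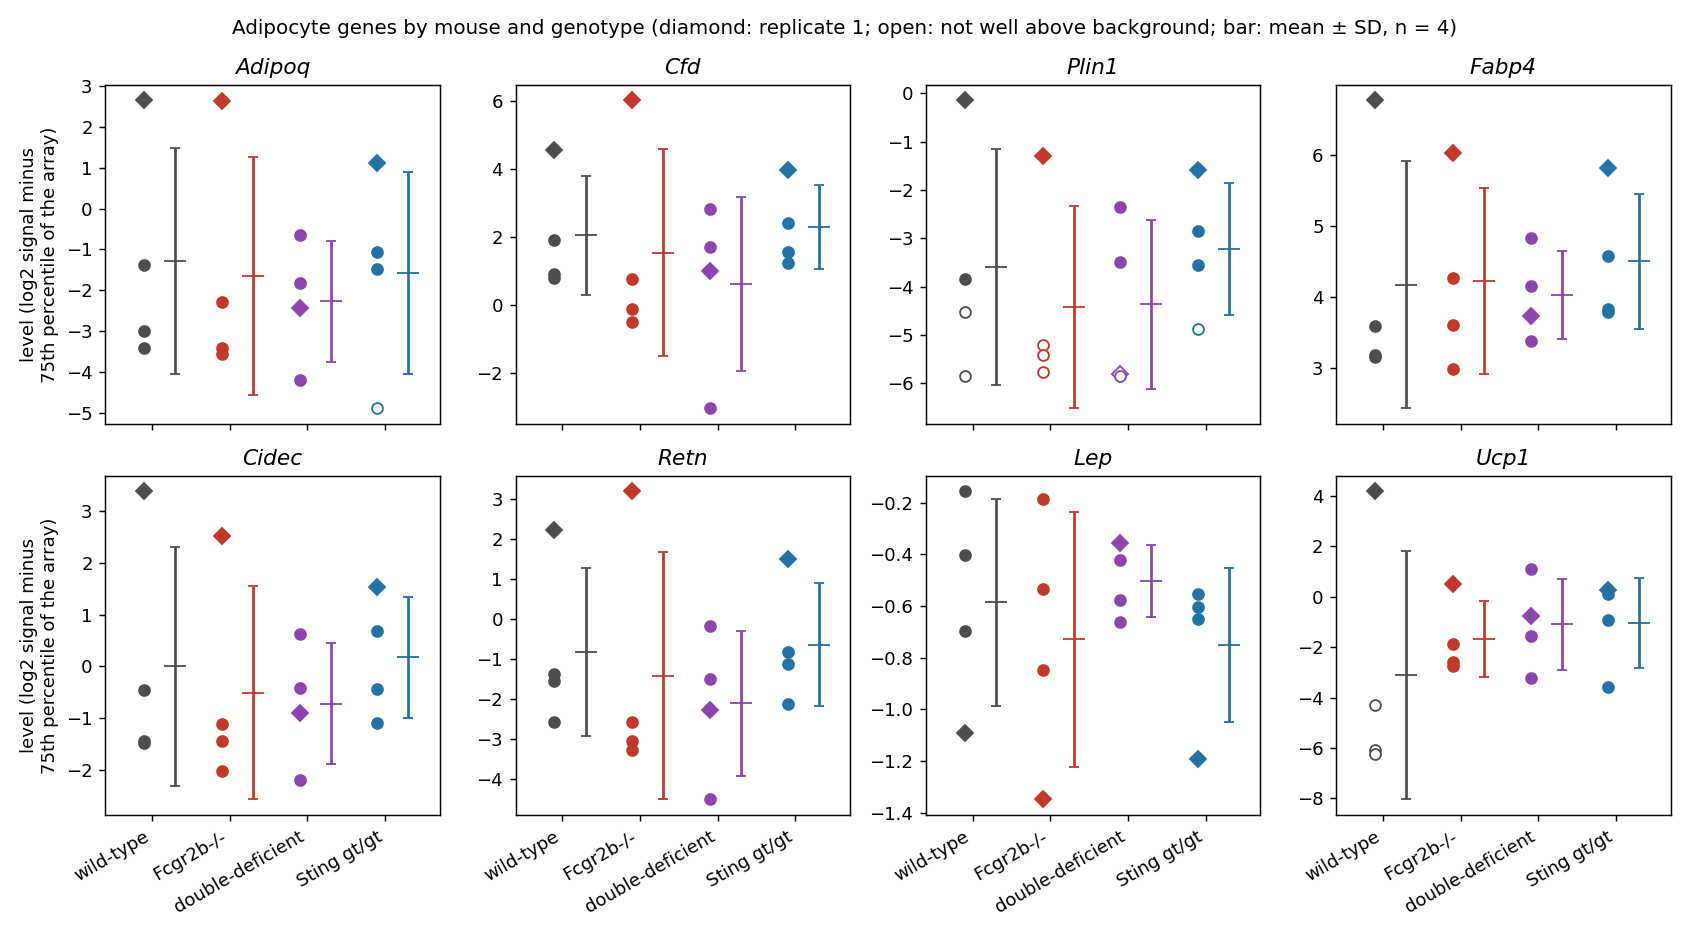
Each panel is a gene, the y axis is the level (log2 signal minus the 75th percentile of the array), and each point is a mouse, with bars for the mean ± SD of 4 mice. Diamonds mark replicate 1, which is the highest mouse for 7 of the 8 genes in the wild-type, Fcgr2b-/- and Stinggt/gt groups and the lowest for Lep; open points were not well above background.

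Over the 16 mice, the 21 pairs among the 7 genes other than Lep had correlations of 0.58 (Cfd with Ucp1) to 0.97, with a median of 0.82. With the mean of each genotype removed the median was 0.86. Without the wild-type and Fcgr2b-/- mice numbered 1 it was 0.64, with a lowest value of 0.20 for Cfd with Fabp4. The 7 pairs with Lep had correlations of -0.84 to -0.56 over 16 mice and -0.76 to -0.34 over those 14. The points of a correlation share the scaling of their array, and the values are given as a description.

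**Figure D3:**
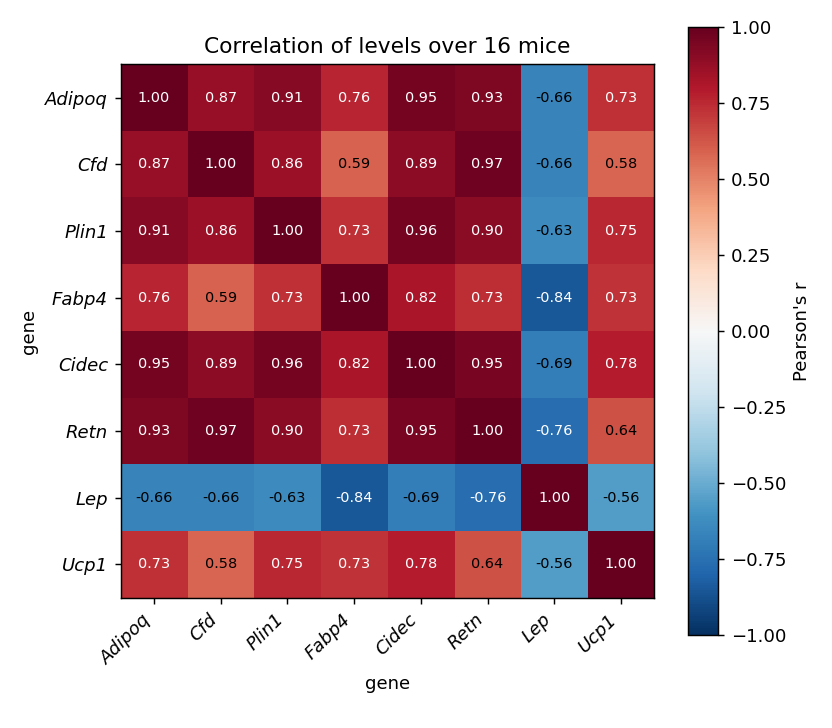
Pearson's r of the levels of each pair of the 8 genes over the 16 mice, from -1 (blue) to 1 (red). The 7 genes other than Lep have pairwise values of 0.58 to 0.97, and all 7 values with Lep are below 0.

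Promoters of the 8 genes were searched for letters of the sites that bind adipocyte factors, because the genes moved together over mice. RefSeq windows (GRCm38.p6, 250 bases before to 50 after a start) were held for 7 of the 8 genes, all but Fabp4, and Cidec had 2. Both strands were searched for a direct repeat of AGGTCA with 1 base between the copies, which PPAR gamma binds with its partner RXR, for the single site AGGTCA, for TTGCNNAA, which C/EBP factors bind, and for TATAAA. The full repeat, its form with any base at the T of each copy, and that form with any first base in its first copy were found in 0 of the 8 windows, and in 0.0396%, 0.381% and 0.798% of 32851 promoters. TTGCNNAA was in the windows of 3 of the 7 genes (Lep, Plin1 and Cidec) against 10.8% of all promoters, the single site AGGTCA in 1 (Ucp1) against 16.3%, and TATAAA in 0 against 13.6%. The single site is part of the full repeat, and in these windows no match to TTGCNNAA overlapped one to AGGTCA. A match is a description of letters and not of binding.

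The windows with a match close to the start are shown for a gene that was high in the same mice as the others (Plin1), for the gene that was not (Lep) and for the brown fat gene (Ucp1), 5′ to 3′ on the strand of the gene up to 1 base before the start, with matches to TTGCNNAA or AGGTCA in capitals. They lie at chr7:79732777-79732976 (minus strand, Plin1), chr6:29060121-29060220 (plus strand, Lep) and chr8:83290248-83290347 (plus strand, Ucp1) of GRCm38.p6.
Plin1: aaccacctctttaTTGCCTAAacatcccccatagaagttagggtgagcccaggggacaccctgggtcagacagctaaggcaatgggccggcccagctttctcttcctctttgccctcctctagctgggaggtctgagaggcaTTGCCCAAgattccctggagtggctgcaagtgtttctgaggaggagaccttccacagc
Lep: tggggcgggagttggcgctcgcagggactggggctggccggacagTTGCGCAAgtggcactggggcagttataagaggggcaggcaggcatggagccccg
Ucp1: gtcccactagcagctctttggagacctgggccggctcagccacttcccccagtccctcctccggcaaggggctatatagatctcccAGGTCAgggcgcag

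Plin1 and Lep both hold TTGCNNAA. Plin1 has 2 matches, at -187 and -58 bases from the start. Lep has 1 at -55, whose letters read the same on both strands. The levels of Plin1 and Lep had r = -0.63 and rho = -0.43 over the 16 mice. Without the wild-type and Fcgr2b-/- mice numbered 1, r was -0.37. The Plin1 probe was dim, and its lower levels have no reliable order. The part of these letters in the levels was not tested. The Ucp1 match to AGGTCA begins at -14.

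Genes outside the 8 were ranked by their correlation with the 8-gene mean over the 16 mice. The 10 with the highest r were Cidea (0.97), Orm1 (0.97), Adrb3 (0.96), Plin4 (0.94), Prkar2b (0.91), Thrsp (0.91), Slc36a2 (0.91), Acvr1c (0.90), Bche (0.90) and Adig (0.88), of 16385 genes with a value on all arrays. Cidea encodes a droplet protein of brown adipocytes, Plin4 another perilipin, Adrb3 the beta 3 adrenergic receptor of adipocytes, Thrsp a regulator of fat synthesis and Adig an adipocyte protein. Without the wild-type and Fcgr2b-/- mice numbered 1, these 10 genes had r of 0.68 (Adig) to 0.96 (Cidea). Cidea was well above background in all 16 mice, with levels of 4.37 in wild-type replicate 1, 2.64 in Fcgr2b-/- replicate 1 and 2.46 in Stinggt/gt replicate 1 against a 16-mouse median of -0.73. Orm1, Acvr1c and Bche were well above background in 4 or 5 mice, Slc36a2 in 7 and Adrb3 in 10.

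The 6 wider lists of genes that adipocytes use held 80 genes, of which 72 entered the tests. Of these, 19 (26.4%) had an r over 0.5 with the 8-gene mean and 6 (8.33%) had one under -0.5, against 12.96% and 14.6% of all tested genes outside the 8. Without the wild-type and Fcgr2b-/- mice numbered 1, r was over 0.5 for 13 of the 72 genes and for 320 of the 16385 genes outside the 8. Of the adipocyte signalling genes 4 of 10 had an r over 0.5, namely Adrb3, Acvr1c, Adig and Trarg1, which takes part in the traffic of the insulin-regulated glucose transporter. Of the adipokines 4 of 12 did, with Orm1 followed by Rbp4 (0.75), which carries retinol, and Retnla (0.67, or 0.34 over those 14 mice). Trarg1 was well above background on 8 arrays and Retnla on 9. The adipogenic factors had 2 of 7, the nuclear receptor gene Pparg (0.62, or 0.19 over the 14 mice) and Ebf1 (0.62, or 0.38), with Cebpb at 0.25. The lipid synthesis genes had 3 of 17, namely Thrsp, Acaca (0.75) and Fasn (0.69), which make fatty acids. The lipid droplet genes had 2 of 10, Cidea and Plin4, with G0s2 next at 0.31.

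Of 17 tested brown fat genes, 5 had an r over 0.5 with the 8-gene mean: Cidea, Slc36a2, Kcnk3 (0.74), Cox8b (0.74) and Dio2 (0.51). Without the wild-type and Fcgr2b-/- mice numbered 1, Kcnk3 had 0.49 and Dio2 0.18. Set against Ucp1 itself, r was 0.90 for Cidea, 0.84 for Slc36a2, an amino acid transporter, and 0.79 for the potassium channel gene Kcnk3. It was 0.72 for Cox8b, a subunit of cytochrome oxidase, and 0.37 for Dio2, which activates thyroid hormone. Slc36a2 and Dio2 were well above background on 7 of the 16 arrays and Kcnk3 on 11, so part of these values rests on dim signals. Cidea levels in the 3 wild-type mice with dim Ucp1 were -1.80, -1.52 and -1.54, and Fcgr2b-/- replicates 3 and 4, with Ucp1 well above background, had -1.70 and -1.53. The Cidea levels of these mice overlapped. In the same list 4 genes had an r under -0.5 with the 8-gene mean, among them Ppara (-0.53), a nuclear receptor of fatty acid burning that kidney tubules also use. Without the wild-type and Fcgr2b-/- mice numbered 1, the 4 had 0.05 (Ppara), 0.11 (Ppargc1b), -0.27 (Cox7a1) and -0.37 (Lhx8).

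Markers of other cells moved with some of the 8 genes. All 5 endothelial genes had an r over 0.5 with the 8-gene mean, 0.58 (Pecam1) to 0.66 (Cdh5), but without the wild-type and Fcgr2b-/- mice numbered 1 only Kdr (0.55) of the 5 did, and the others had 0.28 (Emcn) to 0.48. The sum of their linear signals was 11.1 to 111.1 in wild-type, 15.6 to 51.1 in Fcgr2b-/-, 20.3 to 62.9 in double-deficient and 27.9 to 79.5 in Stinggt/gt mice, in units of the 75th percentile of the array. Fabp4 followed the mean level of these genes closely (r = 0.90, rho = 0.92, and r = 0.89 without the wild-type and Fcgr2b-/- mice numbered 1), while Cidec did so less (0.67, 0.53 and 0.45). Lep followed the mean level of the 10 proximal tubule genes (r = 0.89, rho = 0.89, and r = 0.89 over those 14 mice), and went against the endothelial genes (r = -0.87). The 8-gene mean had an r of -0.59 with the proximal tubule genes and of 0.32 with the macrophage genes, which became -0.36 and -0.01 over those 14 mice. These relations were looked for after the values were seen, and the part of endothelial or tubular RNA in the levels of Fabp4 and Lep was not tested.

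**Figure D4:**
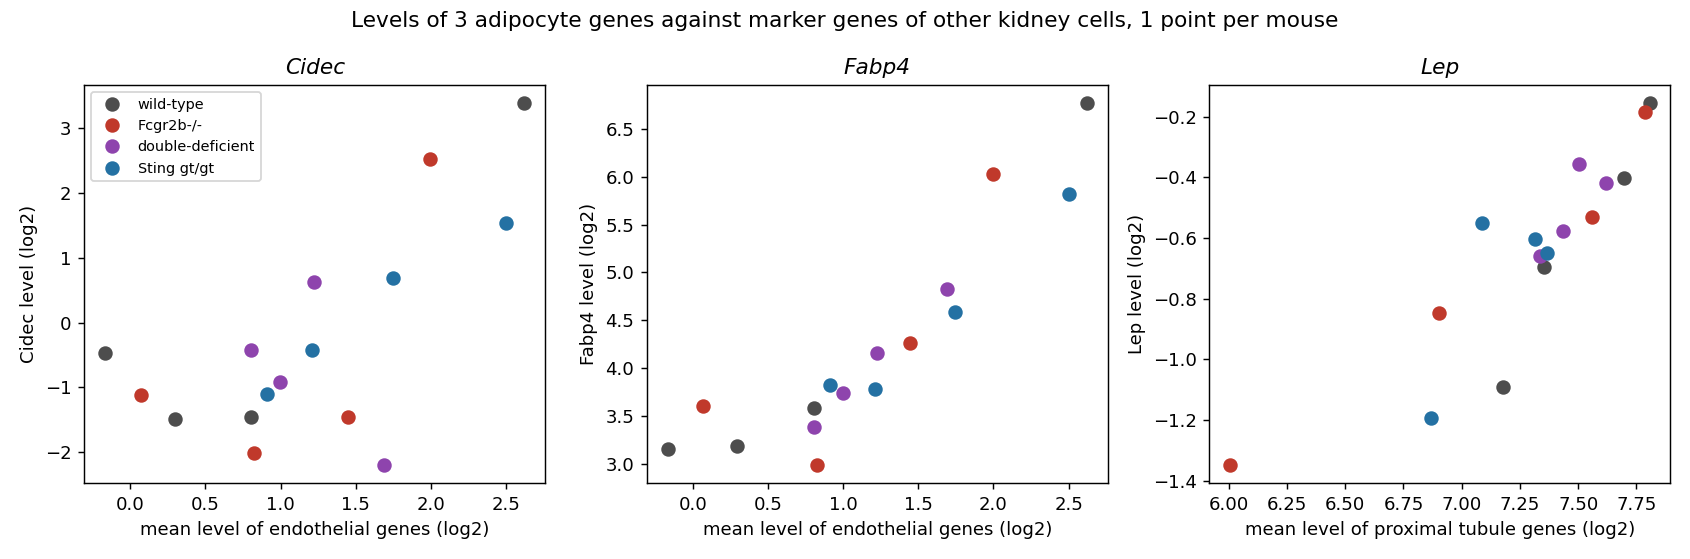
Each point is 1 of the 16 mice, colored by genotype, with the level of Cidec, Fabp4 or Lep (log2) on the y axis and the mean level (log2) of 5 endothelial or 10 proximal tubule genes on the x axis. Fabp4 follows the endothelial genes with less scatter (r = 0.90) than Cidec does (r = 0.67), and Lep follows the tubule genes (r = 0.89).

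In no other marker list of cells or tissues did all genes move with the 8-gene mean. An r over 0.5 was found for Mc2r (0.66) of the 5 adrenal genes and Cd3g (0.54) of the 10 lymphoid genes. They had 0.38 and 0.18 without the wild-type and Fcgr2b-/- mice numbered 1. Mc2r was well above background on 4 of the 16 arrays. Of the 6 tested red cell genes, 1 had an r over 0.5 (0.515) with all 16 mice, and 1 did without those mice. In the same lists, Th (-0.74) and Cyp21a1 (-0.55) of the adrenal genes, Cd4 (-0.62) of the lymphoid genes and 1 red cell gene (-0.547) had an r under -0.5. Of the tissues next to a kidney, the adrenal list had 5 of 11 genes in the tests, none of them Cyp11b1 or Cyp11b2, which make adrenal steroids, and its summed signal was 1.06 to 2.57 in all 16 mice. The markers of mesothelium, which covers the surface of organs, had an r of at most 0.43 with the 8-gene mean, with Msln at 0.12 and Upk3b at 0.08. For the urothelium list the highest was also 0.43 (Upk1a 0.25, Upk2 0.18), and for skeletal muscle it was 0.44 (Acta1 -0.08). Stinggt/gt replicate 1, however, had a summed urothelium signal of 27.1 against 4.38 to 10.7 in the other 15 mice, and a mesothelium signal of 16.4 against 5.83 to 12.6. The part of these tissues in its adipocyte levels was not tested. Nphs1 of podocytes had 0.26, Umod and Slc12a1 of the thick limb -0.31 and -0.01, Lrp2 and Slc34a1 of the proximal tubule 0.27 and -0.62, Adgre1 and Cd68 of macrophages 0.37 and 0.22, Cd79b of B cells 0.50 and Hba-a1 and Hbb-b1 of red cells -0.04 and 0.42. The sex-linked genes Xist (0.04) and Ddx3y (-0.01) had values close to 0. The labels give no sex, and the mean level of the 5 sex-linked genes fell into separate ranges. It was -2.24 to -1.22 in wild-type replicates 1 and 2, Fcgr2b-/- replicate 3, double-deficient replicates 2 and 4 and Stinggt/gt replicate 3. In the other mice it was -6.17 to -5.38, so each genotype group was mixed in this. The part of sex in the adipocyte levels was not tested.

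Array measures were compared with the 8-gene mean as well. The 4 arrays numbered 1 lay on slide 1, where the 8 mice averaged 0.65, against -0.65 for the 8 mice on slide 2. The number of probes well above background, 28443 to 35566, had r = 0.50 with the 8-gene mean (permutation p = 0.04997, two-sided, and 0.0999 adjusted over 2 measures; rho = 0.45, permutation p = 0.0824 and 0.165 adjusted), and r = 0.52 without the 2 arrays farthest from the median. The 75th percentile of the signal had r = 0.38 (permutation p = 0.151, adjusted 0.151; rho = 0.29, permutation p = 0.284 and 0.284 adjusted), and r = 0.30 without the 2 farthest arrays. Beyond these correlations, the part of slide or array brightness in the adipocyte levels was not tested.

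None of the 8 genes passed the test in Fcgr2b-/- against wild-type mice (limma, a change of 2-fold or more with a Benjamini-Hochberg p below 0.05), where 0.0505% of the 35629 probes passed. The limma p without adjustment was also under 0.05 in 0 of the 8 genes (3.35% of probes), and the groups overlapped in all 8 (1.24% of probes had groups that did not overlap). The log2 changes were -0.83 (Plin1), -0.60 (Retn), -0.51 (Cidec), -0.51 (Cfd), -0.38 (Adipoq), -0.14 (Lep), 0.05 (Fabp4) and 1.42 (Ucp1). The second probes of Cfd, Retn and Fabp4 gave -0.49, -0.60 and -0.05. The intervals were wide: the 95% interval of the Adipoq change was -3.70 to 2.94, and that of Lep, the narrowest, was -0.73 to 0.45. The median change of the 8 genes was -0.44, against -0.06 over all tested probes. It was 0.51 without wild-type replicate 1 and -1.67 without Fcgr2b-/- replicate 1, and 0.09 without Fcgr2b-/- replicate 3. Within slides 1 and 2 it was -1.12 and -0.38. The two-tailed Mann-Whitney test of the methods called 0 of the 8 genes in this comparison and in the 3 that follow. With 4 against 4 mice its p is below 0.05 only where groups do not overlap, so this adds nothing to the overlap.

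Loss of STING on the Fcgr2b-/- background gave no call either. Between double-deficient and Fcgr2b-/- mice 0 of the 8 genes passed (limma; 0% of probes), 0 had an unadjusted p under 0.05 (1.81% of probes), and 0 had groups that did not overlap (1.02%). The changes ranged from -0.92 (Cfd, 95% interval -3.94 to 2.11) to 0.59 (Ucp1, -3.27 to 4.44), with a median of -0.20 against 0.06 over all probes. Without Fcgr2b-/- replicate 1 the median was 0.81, without double-deficient replicate 2 it was 0.26, and with the slide as a block it was 0.38. Within slide 1 it was -1.07 (1 against 3 mice) and within slide 2 it was 1.28 (3 against 1 mice).

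In double-deficient against wild-type mice, 0 of the 8 genes passed (limma; 0% of probes), 0 had an unadjusted p under 0.05 (0.424% of probes), and 0 had groups that did not overlap (0.547%). The changes ranged from -1.43 (Cfd, 95% interval -4.45 to 1.60) to 2.01 (Ucp1, -1.85 to 5.86), with a median of -0.75 against 0.00 over all probes. The median was 0.34 without wild-type replicate 1, and within slides 1 and 2 it was -2.31 and 0.77. In Stinggt/gt against wild-type mice 0 of the 8 genes passed (limma; 0% of probes), 0 had an unadjusted p under 0.05 (3.76%), and 0 had groups that did not overlap (2.04%). The changes there ranged from -0.30 (Adipoq, 95% interval -3.62 to 3.03) to 2.07 (Ucp1, -1.78 to 5.93), with a median of 0.21, or 1.19 without wild-type replicate 1, -0.22 without Stinggt/gt replicate 1, 0.64 without the library labelled Stinggt/gt replicate 4, -0.13 and -0.17 without wild-type replicate 3 or 4, and -0.23 and 0.68 within slides 1 and 2. These comparisons share the wild-type mice, whose Ucp1 levels lie at both ends of the range, and in all 3 of them Ucp1 had the largest positive change of the 8 genes, except that with normexp background correction its change in Fcgr2b-/- against wild-type mice was -0.28. The interaction of both losses had 0 of 8 genes past the test (0% of probes) and 0 with an unadjusted p under 0.05 (6.27%), with changes of -1.49 (Ucp1) to 0.39 (Lep).

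**Figure D5:**
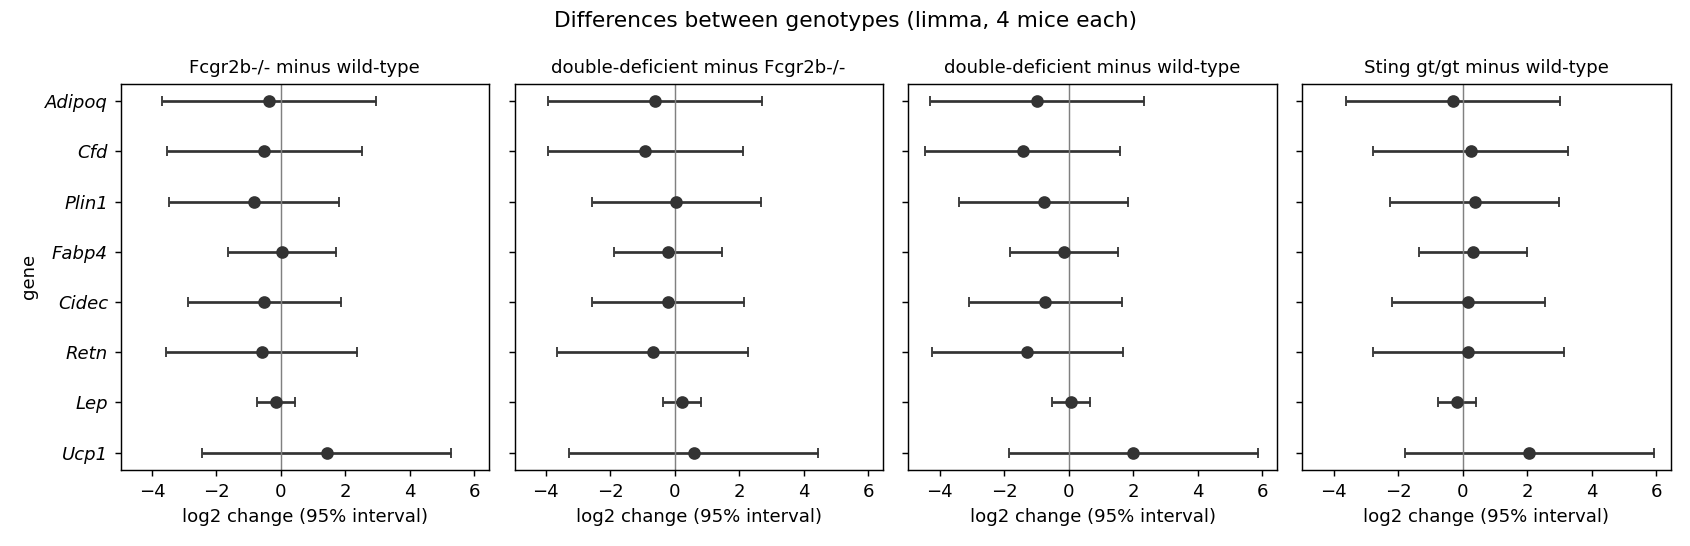
Log2 change of each of the 8 genes (points) with its 95% interval (bars) in 4 comparisons of genotypes with 4 mice each, from the limma fit. Every interval includes 0, and Lep has the shortest intervals.

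The spread among mice of a genotype was larger than the spread of the 4 genotype means in each of the 8 genes. For Adipoq the pooled SD within genotypes was 2.47 and the SD of the genotype means 0.42, for Cidec 1.75 and 0.42, for Ucp1 2.88 and 0.96, and for Lep 0.36 and 0.12. Leaving out replicate 1 of all genotypes, an alternative chosen after seeing the data, gave 0 calls among the 8 genes in each comparison.

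The 72 tested genes of the wider adipocyte lists also had 0 calls in each comparison. In Fcgr2b-/- against wild-type mice 4 of them (5.56%) had an unadjusted p under 0.05, against 3.35% of all probes, and the lowest limma adjusted p was 0.553. Among the 4 were the acute-phase gene Hp (log2 change 2.62 ± 0.88, SE), Lcn2 (2.07 ± 0.85) and Cebpb (0.99 ± 0.38), each with a limma adjusted p of 0.9996. The lowest adjusted p was that of the remaining gene, of the adipokine list, which is not named here. Hp and Lcn2 are also made by injured tubules or inflamed tissue. The 6 tested macrophage genes had changes of 0.82 to 3.21 in the same comparison, with an unadjusted p under 0.05 in all 6 and no call, and their summed signal was 35.8 to 98.7 in Fcgr2b-/- and 23.6 to 27.7 in wild-type mice. Their part in these changes was not tested. In double-deficient against Fcgr2b-/- mice 2 of the 72 genes (2.78%) had an unadjusted p under 0.05, against 1.81% of all probes, among them Lcn2 (-1.96 ± 0.85), and 0 genes did in double-deficient against wild-type mice (0.424% of all probes). In Stinggt/gt against wild-type mice Plin2, which coats lipid droplets of most cells (-0.87 ± 0.29), and G0s2, an inhibitor of fat breakdown (-1.24 ± 0.52), did (2.78%, against 3.76% of all probes), with a limma adjusted p of 0.732.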

How the data were processed

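Kidney RNA of 16 mice (100 ng each) was measured on one-color Agilent arrays. The authors deposited the scanner output of each array, whose processed signals are intensities after background subtraction by Agilent Feature Extraction 11.0, with no scaling between arrays, and a separate log2 table, used here only as an alternative. How the table was made is not given in the sources used here. Genotype and replicate number came from the labels.

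Each processed signal was put on a log2 scale and the log2 75th percentile of its array subtracted, in Python 3.11.15 with numpy 2.4.6 and pandas 2.3.3. Control and outlier spots were left out, spots of one probe were averaged, and 0 spots were saturated. Probes were named by transcript identifier through a RefSeq table (GRCm38.p6): 32994 of 56605 probes (58.3%) got a name. A gene is given by its brightest probe. Tests covered the 35629 probes that 4 or more of the 16 arrays detected well above background. They were made in limma 3.58.1 (lmFit and eBayes, with statmod 1.5.0 under R 4.3.3), with a mean for each genotype over all 16 arrays and Benjamini-Hochberg adjustment over all probes. A probe with only outlier spots on an array (0 to 5 per array) has no value there. The tests were checked on simulated data. No sample was dropped or imputed. The arrays carried 28443 to 35566 probes well above background, and with 4 mice per genotype their number limits the precision.

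The members and gene lists were chosen with earlier results of these data known. Genes named beside the 8 members are, of each wider adipocyte list, called genes or the 3 with the highest correlation with the 8-gene mean, the 10 genes with the highest correlation, and the first 2 genes of each marker list; others were chosen after their values were seen. The 8-gene mean is the mean over the genes of the level minus its 16-mouse mean. Correlations are descriptions over 16 mice. Whole-sample measures were tested with 100000 permutations (scipy 1.17.1). Plots were drawn with matplotlib 3.10.9. Alternatives were normexp background correction (offset 50, on the median signal, the column held in the files), quantile normalization, median scaling, the authors' table, other filters on dim probes, a fit of the compared groups alone, the two-tailed Mann-Whitney test of the methods (smallest p 0.029 with 4 against 4 mice), no fold threshold, a robust eBayes with a trend, each gene taken as its probes' median, and slide, replicate number, animal label number or Y-linked signal in the fit, and each array left out. Labels do not say that mice of a genotype came from separate litters, so p-values measure the spread between these mice. Results of some listed genes are not reported here.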

Additional observations from a re-analysis of the deposited data

Results flagged for a closer look

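Among the 32 combinations of 8 genes and 4 genotypes, 4 had a mouse whose gap to the nearest other mouse, as a share of the range of its group, was above Dixon's limit for 4 samples; chance gives about 1 in 20 such groups. They were Retn in Fcgr2b-/- replicate 1 (gap 0.892 of the range, the highest mouse), Fabp4 in wild-type replicate 1 (0.879, the highest), Plin1 in Fcgr2b-/- replicate 1 (0.872, the highest) and Lep in Stinggt/gt replicate 1 (0.847, the lowest). All 4 were mice numbered 1 on slide 1, and the part of the slide was not tested. The genes were read in the same mice and all but Lep moved together. The 32 combinations are thus not separate, and 4 of 32 cannot be set against 1 in 20. The mouse with the highest Ucp1 of all, wild-type replicate 1, had a gap of 0.815 and stayed under the limit. The levels of the 3 other wild-type mice, -6.08, -4.30 and -6.23, were not well above background, so their differences carry little meaning. Plin1, likewise, was well above background in only 1 of the 4 Fcgr2b-/- mice.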

How the results depend on the processing

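The count of the 8 genes past the test was 0 in each comparison under each alternative run (33 settings, or 31 for the interaction), while the sign of single changes, none of which was called, turned in 130 of 1249 values. The 8-gene medians moved by no more than the spread of 1.71 between mice, except the interaction with the animal label number as a random block (1.39; correlation 0.827, which rests on the 3 first numbers that 2 mice each share). The same block gave medians of -1.72 in Fcgr2b-/- against wild-type and 1.24 in double-deficient against Fcgr2b-/- mice. For double-deficient against Fcgr2b-/- mice, 6 of 8 genes turned sign in replicates 2 to 4 alone, an alternative chosen after seeing the data, 5 of 8 with the slide as a block (Adipoq 0.58, Cidec 0.50) and 5 of 8 with the animal label block (Adipoq 1.41, Cidec 1.23). Leaving out 1 mouse, the median ranged from -1.67 to 0.51 in Fcgr2b-/- against wild-type, -0.66 to 0.81 in double-deficient against Fcgr2b-/-, -1.37 to 0.34 in double-deficient against wild-type, -0.22 to 1.19 in Stinggt/gt against wild-type and -1.57 to 0.47 in the interaction. Median scaling shifted all probes by -0.21, -0.11 and -0.24 in Fcgr2b-/-, double-deficient and Stinggt/gt against wild-type and by 0.32 in the interaction.

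The 18 probes called in Fcgr2b-/- against wild-type mice, none of them of the 8 genes, became 5 with normexp, 7 with the authors' table, 0 with probes above background on all 16 arrays, 0 in a fit of the compared groups alone, 3 with the animal label number as a random block, 8 with Y-linked signal in the fit, 7 in replicates 2 to 4 alone and 0 to 37 with 1 mouse left out (0 without wild-type replicate 2, 3 or 4 or Fcgr2b-/- replicate 4, 37 without Fcgr2b-/- replicate 2). Double-deficient against wild-type mice had 0 calls, and 1 with normexp, 1 with probes above background on all 16 arrays, 3 in a fit of the compared groups alone and 0 to 1 with 1 mouse left out (1 without wild-type replicate 1). At 2-fold or more, unadjusted Mann-Whitney tests gave 144, 41, 63 and 127 probes in the 4 comparisons in the order of the report, and 0 of the 8 genes.

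Replicate numbers were not used to pair the mice in the main fit. Same-numbered arrays of Fcgr2b-/- and wild-type mice had correlations of deviations of 0.69, 0.60, -0.07 and 0.49 in replicates 1 to 4. All 4 of double-deficient and Fcgr2b-/- mice were below 0. Those of double-deficient and wild-type mice were -0.60 to 0.40, and those of Stinggt/gt and wild-type mice -0.24 to 0.43. With the replicate block 16 probes were called in place of 18, and 0 of the 8 genes. Dim probes limit Plin1 and Ucp1, which were well above background on 8 and 13 arrays.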
